A study of Mus musculus with 12 samples.

Results

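The comparison described here set mouse embryonic stem cells labelled Trim71-/- against control cells in the arm of the study that expressed Cas9 alone, with no added Tnrc6a. Members were chosen by the library titles: the 3 libraries titled Cas9 Trim71-/- and the 3 titled Cas9 Ctrl, 6 of the 12 libraries of the series, with 20486 of the 20529 listed genes tested. Every gene of the table entered, and genes of chromosome 8 were counted apart because most of them differed in the same direction. Trim71 (also LIN-41) belongs to the TRIM-NHL family, in which a RING and B-box module is joined to an NHL domain that binds short RNA hairpins. In embryonic stem cells it binds the 3' untranslated regions of mRNAs and lowers their stability or translation. It is itself a classical target of the let-7 microRNA and is known as a timer of early development. Tnrc6a is the Argonaute partner through which microRNAs recruit deadenylases, and the title of the series poses the question of how separate silencing routes meet on Tnrc6.

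By the growth protocol, every group was of 129S6/SvEvTac embryonic stem cells that carried a GFP_5xT71BS reporter and a stable FLAG-Cas9 transgene with blasticidin resistance, kept on gelatin in serum and LIF. The Cas9 control and Cas9 Trim71-/- groups shared these and differed by title in the Trim71 genotype only. The free-text input line of the Trim71-/- libraries names HA-AVI-Tnrc6a, unlike their titles, and that line also names genotypes other than those in the titles in the Tnrc6a arm. Groups follow the titles. Levels are given in CPM, reads scaled to a common library size with TMM factors. Tnrc6a stood at 132 ± 1.31 CPM in the controls and 145 ± 9.79 CPM in the Trim71-/- libraries of the Cas9 arm, against means of 3317 and 3622 CPM in the 2 groups of the Tnrc6a arm. Values with ± are means and SD over the 3 libraries of a group. Replicates were triplicate wells, and no label says that they came from separate cultures or clones, so the p-values measure only the spread between these wells. Differences between the cell lines of the 2 groups that are unrelated to Trim71 cannot be told apart from the genotype. In bulk RNA, a smaller share of cells of one kind and less RNA per cell cannot be told apart either.

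Sequencing depth was 20758151 to 27320667 counted reads in the control libraries and 23215587 to 31552915 in the Trim71-/- libraries. The first principal component of the 6 libraries held 81.2% of the variance and separated the groups, and the second, with 6.88%, set Trim71-/- replicate 3 apart from the other 2 Trim71-/- libraries. All 8 embryonic stem cell markers were expressed in both groups, 5 of them higher and 2 lower in Trim71-/- cells. They summed to 5597 to 5689 CPM in the controls and 6345 to 6466 CPM in the Trim71-/- libraries. That sum includes the chromosome 8 gene Zfp42, which rose from 644 to 1157 CPM, and Dppa5a, which fell from 558 to 311 CPM. Markers of endoderm (6 of 6 tested, all 6 lower) summed to 58.4 to 63.1 CPM in the controls and 7.28 to 9.39 CPM in the Trim71-/- libraries. Neural markers (5 of 5 tested, 2 higher and 2 lower) summed to 130.5 to 134 and 152 to 166 CPM. The summed levels of mesoderm markers (2.33 to 2.96 and 1.75 to 2.07 CPM), trophoblast markers (9.83 to 10.3 and 9.39 to 10.7 CPM) and fibroblast feeder markers (7.44 to 11.2 and 10.8 to 11.9 CPM) were low in both groups. Markers of blood and endothelium (4 of 5 tested, 1 higher and 1 lower) summed to 71.1 to 77.5 and 50.8 to 57.2 CPM, those of germ cells (3 of 3 tested, 2 lower) to 56.6 to 58.3 and 44.8 to 51.6 CPM, and those of heart and muscle (3 of 4 tested, 1 higher and 2 lower) to 4.45 to 5.22 and 3.0 to 3.35 CPM. The feeder markers Col3a1, Dcn, Lum and Postn and the trophoblast marker Elf5 were not listed in the table.

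Trim71 itself (chromosome 9, 114507133 to 114564369, GRCm38) stood at 290.1, 311 and 317 CPM in the control libraries and 264, 270.1 and 291 CPM in the Trim71-/- libraries. Control replicate 1 lay just under the highest Trim71-/- library, so the groups overlapped. The log2 fold change was -0.15 (SE 0.04, edgeR adjusted p = 0.00282). Counts summed over a gene do not show a small deletion or frameshift, so this level does not check the genotype. Of the 10 listed genes on each side of Trim71, the farthest lie 798874 bases before and 417997 bases after it. Among these 20, 7 were higher and 5 were lower, beside 14.7% higher and 19.9% lower of all genes tested outside chromosome 8. Of the 12 calls, 6 were lost in at least 1 fit with a library left out. Ccr4, a chemokine receptor whose gene lies 2217 bases from Trim71, stood at 0.999, 0.81 and 0.309 CPM in the control libraries and 41.7, 39.9 and 40.5 CPM in the Trim71-/- libraries, a difference of 5.86 on the log2 scale (SE 0.14, adjusted p = 4.47e-32). No other neighbour differed by that much. Cnot10, a subunit of the CCR4-NOT deadenylase on the other side, stood at 119 ± 3.94 CPM in the controls and 118 ± 2.22 CPM in the Trim71-/- libraries and was not called. Osbpl10 rose by 0.53, Dync1li1 fell by 0.29 and the lysosomal galactosidase gene Glb1 fell by 0.28 on the log2 scale. Crtap, called at 0.19, lost its call without control replicate 2 (adjusted p = 0.0564) or Trim71-/- replicate 3 (0.0509). Trim71 overlaps the exons of C130032M10Rik on the opposite strand, and the strand setting of the authors' counting is not given in the sources used here.

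Outside chromosome 8, 2853 of 19459 genes tested were higher in Trim71-/- cells (14.7%) and 3868 were lower (19.9%). With chromosome 8 the counts were 3495 of 20486 higher (17.1%) and 3908 lower (19.1%). A rise of at least 1.5-fold was called for 1081 genes (5.28%) and a fall of that size for 1365 genes (6.66%), and 371 rose and 706 fell by at least 2-fold. The 6 libraries did not overlap between the groups for 8866 genes (43.3%). Outside chromosome 8 the calls were many but mostly small: the median over all genes was -0.02 on the log2 scale, with quartiles of -0.24 and 0.16. Large differences were mostly of genes with low levels. Of 2341 genes under 0.5 CPM, 265 fell and 86 rose by at least 2-fold, while of 2367 genes above 100 CPM, 6 fell and 2 rose by that much. Scaling matters to this balance, and with TMM factors computed without chromosome 8 the higher share of calls outside chromosome 8 was 47.2% in place of 42.4%.

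**Figure D1:**
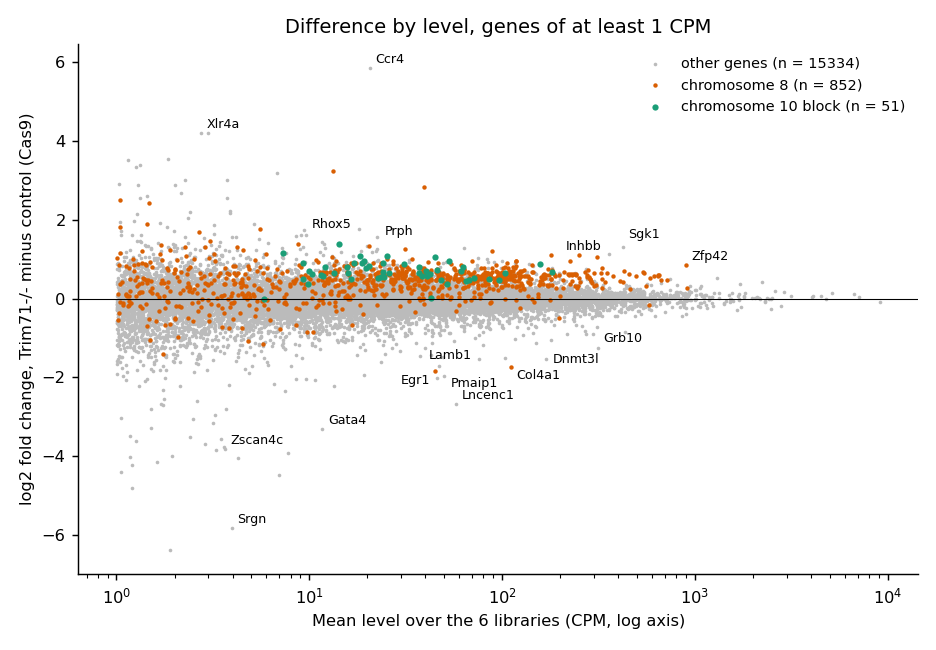
Each point is a gene of at least 1 CPM, with the mean CPM over the 6 Cas9 libraries on a log x axis and the log2 fold change of Trim71-/- minus control on the y axis. Chromosome 8 genes (orange) lie mostly above 0, and Ccr4 stands highest among the labelled genes at 5.86.

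The classes of transcript differed in their calls. Outside chromosome 8, 2354 of 14352 protein-coding genes were higher and 3405 were lower. Processed pseudogenes went 319 higher and 253 lower of 3048, and unprocessed pseudogenes 10 higher and 45 lower of 216. Long intergenic noncoding RNAs went 44 higher and 58 lower of 457, and antisense RNAs 31 higher and 22 lower of 304. Of 116 small nucleolar RNAs 2 were higher and 1 was lower, and of 95 microRNA genes 4 were higher and 4 lower.

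Chromosome 8 genes were higher as a body. Among its 650 genes of at least 5 CPM, 537 were higher, 20 were lower and 93 were not called, with a median of 0.49 on the log2 scale, and 450 lay between 1.2- and 1.7-fold higher. Medians of the other autosomes and of chromosome X ran from -0.04 to 0.02. The chromosome held 4.32% to 4.38% of all counts in the control libraries and 5.99% to 6.05% in the Trim71-/- libraries. In successive stretches of 10 megabases along its length the median lay between 0.44 and 0.57, with more higher than lower genes in each. Protein-coding genes without placeholder names (Gm, Rik or clone names) carried most of the difference: 558 of them had a median of 0.52 with 503 higher. The 92 other genes had a median of 0.09 with 34 higher. These were noncoding genes together with any protein-coding genes of placeholder name, so the split is not coding against noncoding. By level, the median was 0.32 under 0.5 CPM, 0.47 from 0.5 to 1 CPM, 0.32 from 1 to 5 CPM, 0.38 from 5 to 20 CPM, 0.51 from 20 to 100 CPM and 0.53 above 100 CPM. In the Tnrc6a arm the median of the same 558 genes was 0.54, and the effect of genotype differed between arms for 72 of the 1027 chromosome 8 genes tested. DNA copies were not measured.

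Several genes of chromosome 8 went far beyond this body. Cpe, a carboxypeptidase that trims prohormones, stood at 9.26, 10.4 and 9.58 CPM in the control libraries and 68.8, 69.8 and 69.4 CPM in the Trim71-/- libraries, a 7.14-fold rise (log2 SE 0.07, adjusted p = 1.78e-32). Every Trim71-/- library was over 68 CPM and no control was over 10.4 CPM. The homeobox gene Nkx6-3 rose from 2.52 ± 0.536 to 24 ± 2.59 CPM, by 3.24 on the log2 scale. Calb2 (calretinin) rose by 1.38, the glycosyltransferase gene B3gnt3 by 1.76, the guanine exchange factor gene Mcf2l by 1.33, Sh2d4a by 1.30 and the Hedgehog-binding protein gene Hhip by 1.23. The oxidoreductase gene Nqo1 rose by 1.26, and the metallothionein genes Mt1 and Mt2, which bind zinc and copper, by 1.21 and 1.10. Zfp42 (REX1), a marker of naive stem cells, stood at 629, 647 and 658 CPM in the control libraries and 1159, 1174 and 1138 CPM in the Trim71-/- libraries, and its rise of 0.84 was above the upper quartile of the chromosome (0.63). Fewer genes fell against that background. Col4a1 and Col4a2, the paired genes of type IV collagen, fell by 1.73 and 1.83 on the log2 scale and are described with the basement membrane. Nrg1, a ligand of ErbB receptors, fell by 1.14, Plvap by 1.07, the ERK phosphatase gene Dusp4 by 0.85, the antiviral tetherin gene Bst2 by 0.85, Adad2 by 0.77 and the peptide hormone gene Apela by 0.68. Exons of Mcf2l, Hhip, Nrg1 and Apela overlap those of predicted genes. The receptor genes Itgb1 (integrin beta 1) and Cdh1 (E-cadherin) rose, both by 0.72, which is also above the upper quartile of the chromosome (0.63).

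A stretch of chromosome 10 also differed as a body, and it was picked after running medians along every chromosome had been seen. Protein-coding genes in this paragraph are again those without placeholder names. Between 28 and 46 megabases, 49 of 51 protein-coding genes of at least 5 CPM were higher and none was lower, with a median of 0.66 on the log2 scale (1.58-fold). The medians of the 3 Trim71-/- libraries were 0.70, 0.65 and 0.64, and the median in the Tnrc6a arm was 0.70. On either side it was not so: the 59 protein-coding genes before the stretch had a median of 0.08 and the 372 after it had a median of -0.03. Smaller shifts of both signs lay on the chromosome, with medians of 0.26 and 0.25 from 16 to 20 and 20 to 24 megabases, of -0.27 and -0.24 from 56 to 60 and 60 to 64 megabases, and of 0.26 and 0.33 from 64 to 68 and 68 to 72 megabases. The 13 other genes within the stretch, noncoding or of placeholder name, had a median of 0.01. Hdac2, a histone deacetylase of the NuRD and Sin3 complexes, stood at 109.5, 109 and 115 CPM in the control libraries and 201, 207 and 207 CPM in the Trim71-/- libraries. Marcks, a protein kinase C substrate at the cell cortex, stood at 35.6, 37.8 and 35.7 CPM in the control libraries and 68.8, 71.7 and 70.7 CPM in the Trim71-/- libraries. Lin28b, the sister of Lin28a that blocks let-7 maturation, stood at 16.3, 17 and 17 CPM in the control libraries and 32.4, 32.1 and 29.8 CPM in the Trim71-/- libraries. For all these genes each Trim71-/- library was above every control, and the log2 fold changes were 0.88, 0.95 and 0.91 (SE 0.04, 0.05 and 0.07). Others in the stretch were Traf3ip2, an adaptor of the interleukin 17 receptor (1.40), Rtn4ip1 (1.09), Cd24a (1.07), the kinase gene Fyn (0.91), the phosphatase gene Ptprk (0.70), the polymerase gene Rev3l (0.69), the growth regulators Sesn1 (0.65) and Foxo3 (0.47), and Amd1 of polyamine synthesis (0.49). Exons of Traf3ip2 and Rtn4ip1 overlap genes of the opposite strand. The last gene with a difference of this size was Hace1 (0.78), and the next of that level, Ascc3, stood at 41.7 ± 3.81 CPM in the controls and 47.3 ± 1.85 CPM in the Trim71-/- libraries (0.18, groups overlapping). Without chromosome 8 and this stretch, 2785 of 19354 genes were higher and 3866 were lower.

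**Figure D2:**
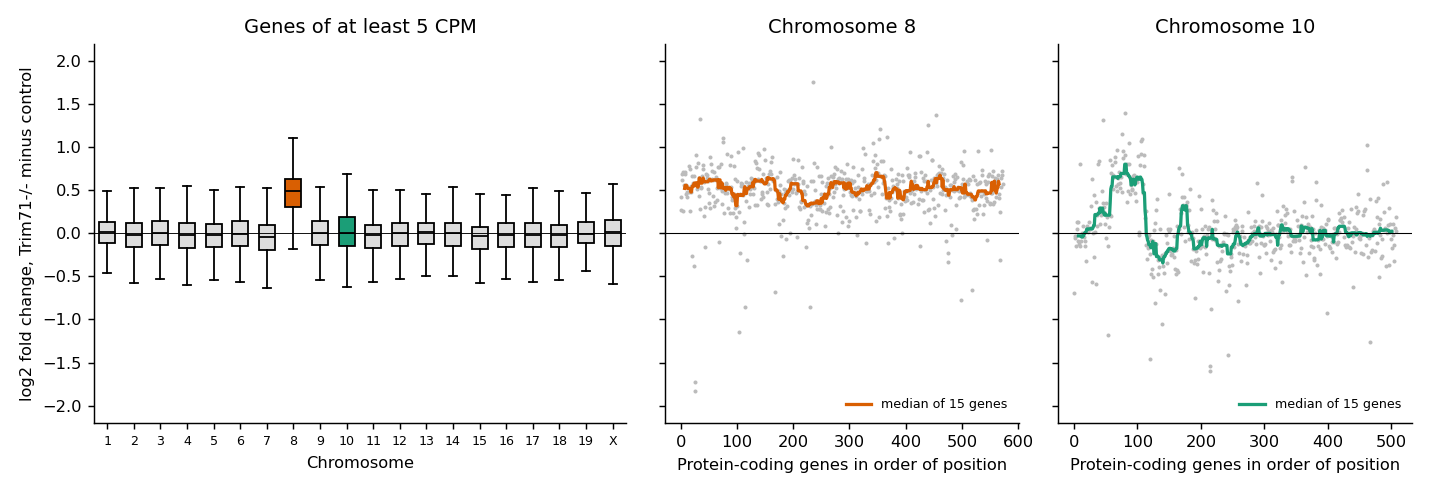
The left panel gives the log2 fold change of genes of at least 5 CPM by chromosome (box, quartiles; line, median; whiskers, the farthest gene within 1.5 quartile ranges); the others show protein-coding genes of chromosomes 8 and 10 in order of position, with a running median of 15 genes. Chromosome 8 lies above 0 along its whole length (median 0.49), and chromosome 10 has its highest running median in the stretch described (median 0.66).

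In the cluster of KRAB-type zinc finger genes on distal chromosome 4, a young family expanded in the mouse whose members bind repeats and recruit silencing complexes, the direction was the opposite. The cluster was picked after its values had been seen. Of 21 zinc finger genes of at least 5 CPM there, 19 were lower and none was higher, with log2 fold changes from -0.92 to -0.01 and a median of -0.71. The promoters of 5 of them are printed because they show how alike the copies are, and because copies that share a long stretch did not all move together. They are RefSeq reference sequences (GRCm38.p6), from 250 bases before to 50 after the start, at chr4:146156577-146156876 (+) for Zfp600, chr4:147021600-147021899 (+) for Rex2, chr4:147642459-147642758 (-) for Zfp979, chr4:146097062-146097361 (+) for Zfp987 and chr4:147702582-147702881 (-) for Zfp534, each given 5' to 3' on its own strand. Capitals mark the longest run shared by the first 3, and by the last pair.
Zfp600: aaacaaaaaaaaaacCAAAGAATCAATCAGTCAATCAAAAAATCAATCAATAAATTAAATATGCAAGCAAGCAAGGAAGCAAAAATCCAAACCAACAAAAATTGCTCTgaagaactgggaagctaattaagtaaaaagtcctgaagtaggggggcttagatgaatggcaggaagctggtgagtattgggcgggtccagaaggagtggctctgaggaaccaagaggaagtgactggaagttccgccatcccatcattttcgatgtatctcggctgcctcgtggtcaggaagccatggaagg
Rex2: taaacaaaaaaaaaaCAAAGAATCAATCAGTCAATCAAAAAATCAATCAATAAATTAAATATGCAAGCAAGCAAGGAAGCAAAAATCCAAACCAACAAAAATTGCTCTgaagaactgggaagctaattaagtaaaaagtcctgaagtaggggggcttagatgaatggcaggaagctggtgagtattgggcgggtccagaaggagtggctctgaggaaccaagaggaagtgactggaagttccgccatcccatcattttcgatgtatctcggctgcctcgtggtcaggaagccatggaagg
Zfp979: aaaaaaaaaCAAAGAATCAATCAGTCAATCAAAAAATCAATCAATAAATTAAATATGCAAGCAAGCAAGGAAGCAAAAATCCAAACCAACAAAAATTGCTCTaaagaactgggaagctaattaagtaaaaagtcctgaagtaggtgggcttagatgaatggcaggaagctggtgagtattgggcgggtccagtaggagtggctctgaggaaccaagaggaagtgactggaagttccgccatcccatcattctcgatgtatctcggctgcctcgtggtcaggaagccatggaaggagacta
Zfp987: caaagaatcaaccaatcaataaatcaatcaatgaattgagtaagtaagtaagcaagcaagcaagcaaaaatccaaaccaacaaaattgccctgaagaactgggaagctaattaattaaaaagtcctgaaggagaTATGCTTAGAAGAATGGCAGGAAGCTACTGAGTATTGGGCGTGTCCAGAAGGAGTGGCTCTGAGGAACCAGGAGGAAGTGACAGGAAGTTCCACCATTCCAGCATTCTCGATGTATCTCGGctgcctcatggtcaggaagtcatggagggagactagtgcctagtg
Zfp534: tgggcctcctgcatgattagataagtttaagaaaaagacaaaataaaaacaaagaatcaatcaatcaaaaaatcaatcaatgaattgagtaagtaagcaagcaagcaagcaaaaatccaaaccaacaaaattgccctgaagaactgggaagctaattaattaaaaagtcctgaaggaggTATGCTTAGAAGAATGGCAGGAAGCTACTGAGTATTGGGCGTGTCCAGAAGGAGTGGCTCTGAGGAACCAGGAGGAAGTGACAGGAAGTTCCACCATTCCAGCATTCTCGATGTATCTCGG
The capital run of 93 bases stands in the promoters of Zfp600, Rex2 and Zfp979 and in no other of 32851 promoters of the reference table. The run of 121 bases stands only in those of Zfp987 and Zfp534. Over their 300 bases Zfp600 and Rex2 differ at 4 positions and share an unbroken run of 285 bases.

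Zfp600 stood at 379, 374 and 399 CPM in the control libraries and 210.1, 213 and 195 CPM in the Trim71-/- libraries, and Rex2 at 338, 338 and 353 CPM in the control libraries and 196, 200.1 and 189 CPM in the Trim71-/- libraries. Both fell in every Trim71-/- library, by 0.90 and 0.82 on the log2 scale (SE 0.04 and 0.04, adjusted p = 2.78e-21 and 1.95e-20). Zfp979, with the same capital run, stood at 196, 188 and 191 CPM in the control libraries and 183, 180.3 and 179.5 CPM in the Trim71-/- libraries and was not called (-0.08, adjusted p = 0.113). Its libraries did not overlap between groups, but the difference was small, and the effect differed from the Tnrc6a arm, where it was 0.14 (interaction adjusted p = 0.0155). Zfp987 fell from 125 ± 2.62 to 76 ± 1.87 CPM and Zfp534 from 173 ± 5.34 to 111 ± 5.52 CPM, by 0.72 and 0.64. The largest fall of the cluster was that of Zfp992 (from 99.4 to 52.6 CPM, -0.92), and Zfp933 at its edge stood at 7.16 ± 0.653 CPM in the controls and 7.06 ± 0.823 CPM in the Trim71-/- libraries (-0.01, not called). These genes share transcript sequence: 1.05% to 89.1% of their 50-base windows, with a median of 67.9%, also occur in other genes, so reads may have been split or moved among copies. The 6 pseudogenes of the cluster that carry Smarca5 sequence (29.1% to 44.6% of their windows) were all higher, with a median of 0.39, and Smarca5 itself is a chromosome 8 gene that rose by 0.69. How many of their reads came from Smarca5 was not tested. Over the 362 Zfp genes tested outside chromosome 8 as a whole, 39 were higher (10.8%) and 92 were lower (25.4%). This compares with 14.7% and 19.9% of all genes and 16.4% and 23.7% of protein-coding genes. The 362 include the Zfp genes of this cluster, so their lower count is not separate from it.

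**Figure D3:**
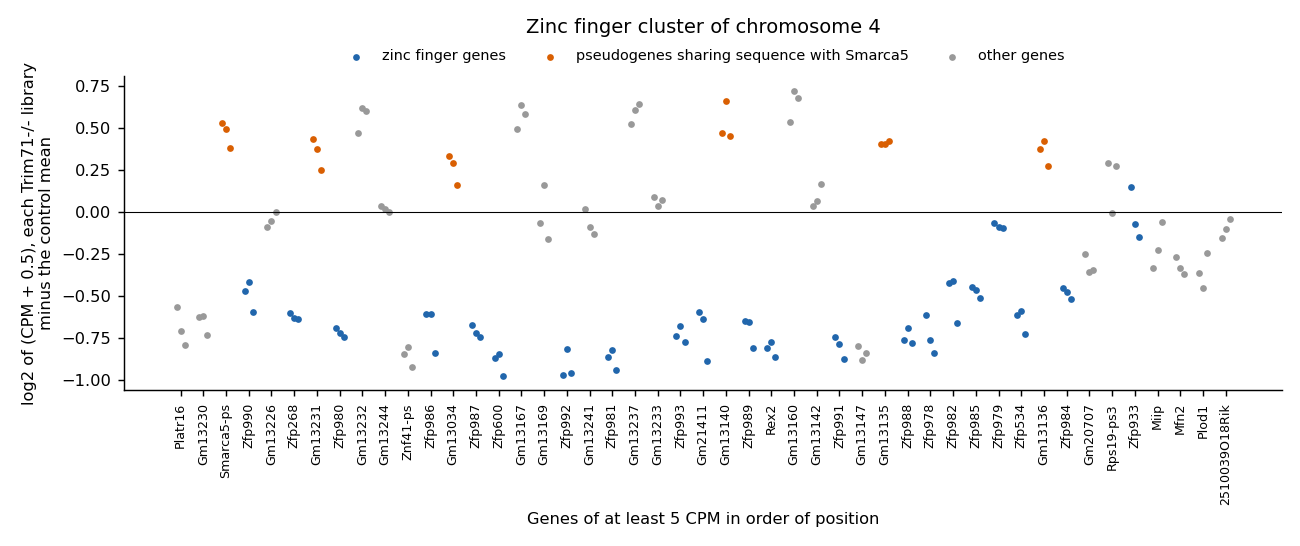
Log2 of (CPM + 0.5) in each Trim71-/- library minus that of the control mean, for genes of at least 5 CPM in the chromosome 4 cluster in order of position. Zinc finger genes (blue) lie below 0 except Zfp933 in 1 library, with Zfp979 nearest to 0 of the others, and the pseudogenes with Smarca5 sequence (orange) lie above 0 in all 3 libraries.

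Outside chromosome 8, the largest rises were sought among called genes with a mean of at least 20 CPM in either group. Their libraries also had to show no overlap between the groups, so that separation was a condition of the choice and not a result. Inhbb, Sgk1 and Epha4 were past 20 CPM in the controls too, and the other genes of this paragraph reached that level only in the Trim71-/- group. Rhox5, an X-linked homeobox gene of the reproductive tract and placenta, stood at 8.41, 7.94 and 8.15 CPM in the control libraries and 23.3, 31.5 and 28.8 CPM in the Trim71-/- libraries, a 3.39-fold rise (adjusted p = 1.08e-19). Prph, the neuronal intermediate filament peripherin, stood at 11.3, 11 and 11.8 CPM in the control libraries and 34.1, 31 and 35.8 CPM in the Trim71-/- libraries (2.95-fold, adjusted p = 1.48e-20). Peripherin was about even within each group, and its lowest Trim71-/- library was above 30 CPM. Inhbb, the beta B subunit from which activin B is made, stood at 221, 223 and 229.8 CPM in the control libraries and 495, 504 and 486 CPM in the Trim71-/- libraries (2.2-fold, log2 SE 0.04, adjusted p = 2.74e-27). Sgk1, a kinase induced by serum and glucocorticoids, stood at 240.4, 253 and 234 CPM in the control libraries and 616, 603 and 588 CPM in the Trim71-/- libraries (2.48-fold, adjusted p = 1.32e-29). These were high-level genes with tight replicates, and in both the groups were far apart. The ephrin receptor gene Epha4 rose from 36.9 ± 1.16 to 90.03 ± 3.84 CPM and the nucleosome remodeller Chd3 of the NuRD complex from 13.3 ± 1.17 to 31 ± 0.879 CPM. AMP deaminase Ampd3 rose by 1.34 on the log2 scale, the adhesion receptor gene Adgrb1 by 1.27, the splicing regulator Mbnl1 by 1.21, Zbtb7c by 1.2, the crosslinking enzyme Tgm2 by 1.19 and the kinase gene Rps6ka4 by 1.08. Exons of Ampd3, Adgrb1, Tgm2 and Rps6ka4 overlap those of other genes.

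**Figure D4:**
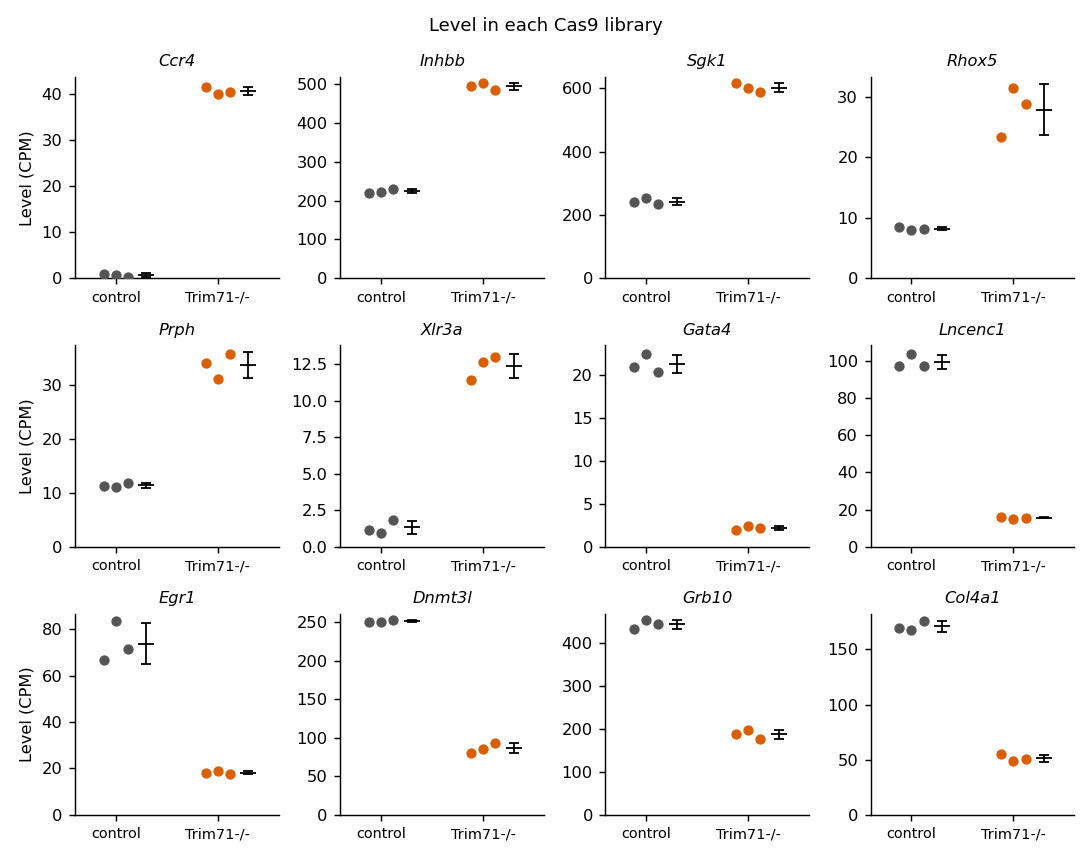
CPM of 12 genes in each Cas9 library (points), with mean and SD of the 3 libraries beside them, and each y axis starting at 0. In no panel do the control and Trim71-/- libraries overlap, and the widest gap in ratio is that of Ccr4. The lack of overlap was a condition of the rule for the largest rises and falls, from which many of these genes came.

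The largest falls were sought by the same rule, and some of them are given with the matrix genes. Gata4, a transcription factor of primitive endoderm and heart, stood at 21, 22.4 and 20.3 CPM in the control libraries and 1.88, 2.36 and 2.21 CPM in the Trim71-/- libraries, a fall of 3.31 on the log2 scale (log2 SE 0.11, adjusted p = 4.05e-26). Lncenc1, a long noncoding RNA of naive stem cells, stood at 97.7, 104 and 97.3 CPM in the control libraries and 15.8, 15.1 and 15.7 CPM in the Trim71-/- libraries (a log2 difference of -2.68, adjusted p = 1.77e-32). Both were lower by a wide margin in all 3 Trim71-/- libraries. Egr1, an immediate early transcription factor induced by growth factors, stood at 66.6, 83.5 and 71.5 CPM in the control libraries and 18.1, 18.7 and 17.5 CPM in the Trim71-/- libraries (a log2 difference of -2.03), and control replicate 2 was its highest library. Pmaip1 (NOXA), a p53-induced killer of the BCL2 family, stood at 77.1, 77.8 and 83.5 CPM in the control libraries and 22.5, 19.5 and 18.5 CPM in the Trim71-/- libraries (a log2 difference of -1.97). Lrp2 (megalin), an endocytic receptor of polarised epithelia, fell from 30.3 ± 2.02 to 7.95 ± 0.511 CPM. Glipr2, a Golgi-associated protein gene, fell by 2.22 on the log2 scale, Rpl39l, the paralogue of a ribosomal protein gene, by 1.71, the exchange factor gene Arhgef26 by 1.6, the gap junction gene Gja1 by 1.46 and the autophagy receptor gene Calcoco2 by 1.42. Dnmt3l, the partner of the de novo DNA methyltransferases, stood at 250.3, 250.5 and 253 CPM in the control libraries and 80.5, 85 and 93.3 CPM in the Trim71-/- libraries, a fall of 1.54 on the log2 scale (adjusted p = 2.46e-29). Exons of Dnmt3l overlap Aire, and those of Arhgef26 a predicted gene, on the opposite strand. Grb10, an imprinted inhibitor of insulin receptor signalling, stood at 433, 455 and 445 CPM in the control libraries and 188, 197 and 177 CPM in the Trim71-/- libraries, a fall of 1.24 on the log2 scale that took it from above 430 to below 200 CPM in every library.

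The largest changes in absolute CPM held small folds of abundant mRNAs beside larger folds of genes described above, namely the rises of Zfp42, Sgk1 and Inhbb and the falls of Grb10, Zfp600 and Dnmt3l. Eef1a1 and Ncl, a translation elongation factor and the nucleolar protein nucleolin, rose from 6457 ± 135 to 6965 ± 222 CPM and from 4872 ± 211 to 5422 ± 191 CPM, by only 0.11 and 0.15 on the log2 scale. Ptma rose by 0.42, the ferritin light chain gene Ftl1 by 0.36, Npm1 by 0.19 and the chaperone gene Hsp90aa1 by 0.18. Of the transcript windows of these genes, 20.4% (Ptma) to 50.9% (Ftl1) recur elsewhere, except in Ncl (1.96%), so their counts may hold reads of copies. Among the other falls was that of Pabpc1, the poly(A)-binding protein (from 2701 ± 65.8 to 2268 ± 125 CPM, -0.25). Also lower were Actb (-0.30), Pkm (-0.21), Aldoa (-0.44, exons shared with Fam57b), Dppa5a (-0.84) and Eif2s2 (-0.44). From Pabpc1 to Eif2s2, 6.43% (Aldoa) to 38.6% (Dppa5a) of transcript windows recur elsewhere, so these counts may hold reads of copies too. Fibronectin (Fn1) fell by 0.38, a call that was lost without control replicate 2 or 3 or Trim71-/- replicate 1 or 2 (adjusted p = 0.0529 to 0.0569). Of the proteins named by the labels of the wider series, Ago2 stood at 332 ± 22.5 CPM in the controls and 269.8 ± 19.3 CPM in the Trim71-/- libraries and was not called (adjusted p = 0.0523), Tnrc6a was called at 0.13 with overlapping libraries and lost its call without Trim71-/- replicate 1 (0.0938) or 2 (0.0527), and the chromosome 8 gene Upf1 rose by 0.48.

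Gene lists were then described by their calls outside chromosome 8, against 14.7% higher and 19.9% lower among all genes tested there and a median of -0.02. These shares depend on level: 3.67% were higher and 11.4% lower under 0.5 CPM, against 22.8% and 26.3% above 100 CPM. Among protein-coding genes they were 16.4% and 23.7%. The lists were not matched for level, so lists of well-expressed genes can pass the shares of all genes for that reason. The naive pluripotency network leaned upward: 14 of 25 genes were higher and 6 were lower, with a median of 0.09. Nanog stood at 576, 585 and 575 CPM in the control libraries and 768, 779.5 and 739 CPM in the Trim71-/- libraries, a rise of 0.40 on the log2 scale with every Trim71-/- library above every control. The nuclear receptor genes Nr5a2 and Esrrb rose by 0.48 and 0.32, and Klf4 rose by 0.36. Pou5f1 (OCT4) stood at 1467 ± 41.7 CPM in the controls and 1559.9 ± 96 CPM in the Trim71-/- libraries and was not called (adjusted p = 0.0699), and Dppa2 and Sall4 fell by 0.57 and 0.45. Genes of the formative and primed states, which follow naive pluripotency in the embryo, went the other way, with 12 of 14 lower, 2 higher and a median of -0.79. Pou3f1 (OCT6) fell from 8.68 ± 0.982 to 3.03 ± 0.208 CPM, Otx2 from 31.5 ± 1.54 to 19.95 ± 2.01 CPM, Lef1, the nuclear partner of beta-catenin, by 2.81 and N-cadherin (Cdh2) by 1.23.

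**Figure D5:**
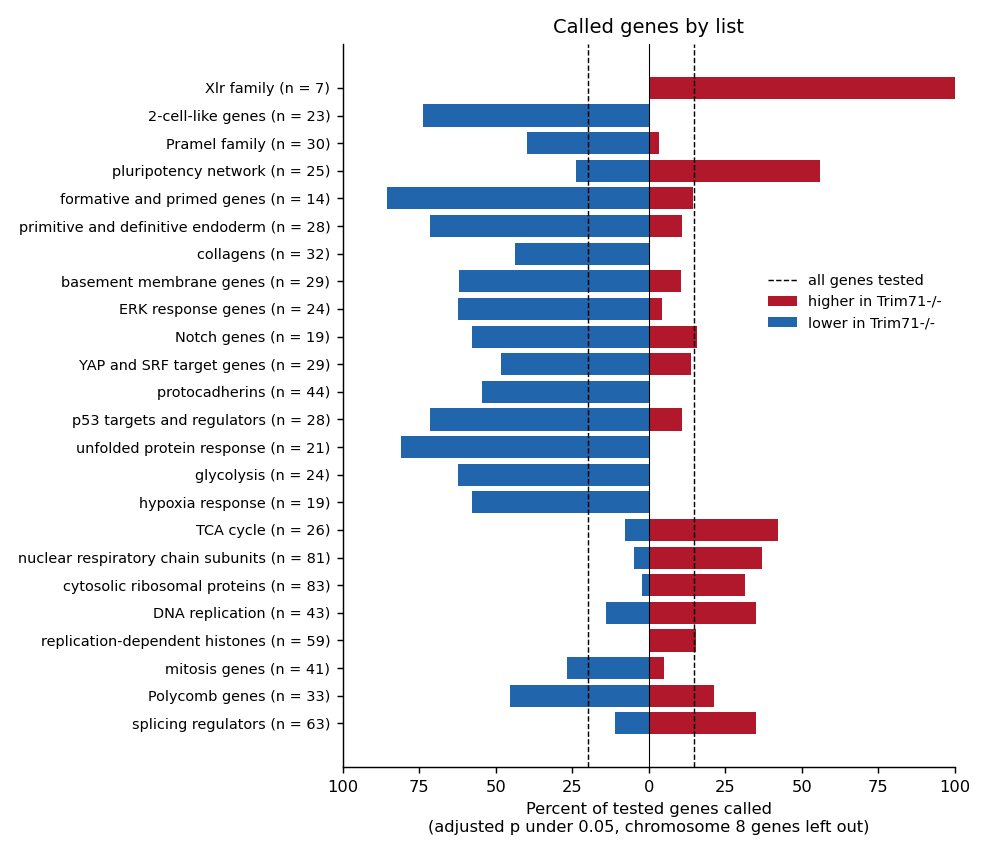
Percent of tested genes outside chromosome 8 called higher (right, red) or lower (left, blue) in each list, with dashed lines at 14.7% and 19.9% for all genes tested. Bars reach farthest to the left for formative genes (12 of 14) and the unfolded protein response (17 of 21), and to the right for the Xlr family (7 of 7).

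Genes of DNA methylation changed in both directions. Dnmt3a, the de novo methyltransferase that Dnmt3l activates, stood at 204, 207 and 207 CPM in the control libraries and 93.3, 103 and 85.7 CPM in the Trim71-/- libraries, a fall of 1.13 on the log2 scale. Dnmt3b fell by 0.28 and the maintenance enzyme Dnmt1 by 0.12. Tet2, which oxidises methylcytosine, stood at 194, 204 and 208 CPM in the control libraries and 352, 341 and 332 CPM in the Trim71-/- libraries, a rise of 0.76, and Zfp57, the zinc finger protein that keeps methylation at imprints, rose from 618 ± 18.7 to 869 ± 30.2 CPM. Uhrf1, which brings Dnmt1 to new DNA, stood at 358 ± 12.9 CPM in the controls and 359 ± 8.62 CPM in the Trim71-/- libraries and Tet1 at 321 ± 25.4 CPM in the controls and 265 ± 7.7 CPM in the Trim71-/- libraries, and neither was called. In all, 3 of 18 genes of the list were higher and 7 were lower. Of 33 Polycomb genes 15 were lower and 7 were higher, with a median of -0.09: Kdm2b, which brings PRC1 to CpG islands, fell from 149 ± 5.86 to 89.9 ± 3.06 CPM, Pcgf5 by 0.64 and Aebp2 by 0.52, Suz12 rose by 0.27, and Ezh2 stood at 181 ± 0.628 CPM in the controls and 172 ± 4.52 CPM in the Trim71-/- libraries and was not called. Imprinted genes were mixed, 5 of 26 higher and 13 lower. Mest, paternally expressed, stood at 53.2, 57.4 and 54.8 CPM in the control libraries and 112, 112 and 109.9 CPM in the Trim71-/- libraries (2.02-fold higher), and Peg10 fell by 1.06, Dlk1 by 1.7 and the maternally expressed noncoding RNA gene Meg3 by 0.44.

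Extracellular matrix genes were lower in Trim71-/- cells, along with markers of endoderm, the embryonic tissue that lays down the first basement membrane. Of 28 endoderm genes outside chromosome 8, 20 were lower and 3 were higher (median -0.89), and the whole list summed to 1887 to 1969 CPM in the controls and 1187 to 1235 CPM in the Trim71-/- libraries. Gata6 fell from 14.5 ± 1.16 to 0.941 ± 0.235 CPM and Sox17 from 5.79 ± 0.31 to 0.72 ± 0.239 CPM. Of 29 laminins, nidogens and other basement membrane genes, 18 were lower and 3 were higher (median -0.37). Lama1 stood at 151, 158 and 151 CPM in the control libraries and 50.6, 51.7 and 58.9 CPM in the Trim71-/- libraries, and Lamb1 at 110.1, 113 and 114 CPM in the control libraries and 37, 38.8 and 42 CPM in the Trim71-/- libraries, both lower by 1.52 on the log2 scale. The third chain of laminin-111, Lamc1, fell by 0.28 on the log2 scale (from 653 to 536 CPM). Sparc, a collagen-binding matrix protein, fell from 355 ± 14.5 to 192 ± 2.53 CPM, and the nidogen genes Nid1 and Nid2 by 0.23 and 0.45. Perlecan (Hspg2) stood at 353, 357 and 377 CPM in the control libraries and 242, 259.7 and 341 CPM in the Trim71-/- libraries and was not called; the groups did not overlap. Among the higher genes of the list were P3h4 (0.29) and Lama4 (0.69), and 1 higher gene was left without control replicate 2 or Trim71-/- replicate 2 or 3.

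Among collagens 14 of 32 genes outside chromosome 8 were lower and none was higher, with a median of -0.45. Col4a1 stood at 169, 167 and 176 CPM in the control libraries and 54.9, 49 and 50.2 CPM in the Trim71-/- libraries, lower by 1.73 on the log2 scale in spite of its place on chromosome 8, and Col4a2 fell from 70.5 ± 5.23 to 19.9 ± 1.14 CPM. Both are transcribed from a shared promoter on opposite strands, and their exons overlap. Col18a1 fell from 444 ± 20.5 to 327 ± 8.11 CPM (-0.45), and Col6a5 by 1.35. Serpinh1 (HSP47), the collagen chaperone, stood at 74.9, 73.1 and 71.4 CPM in the control libraries and 27.6, 24.9 and 25.3 CPM in the Trim71-/- libraries, and the prolyl hydroxylase genes P4ha2 and P4ha1 fell by 1.43 and 0.81, whereas P3h4 and Crtap, of the prolyl 3-hydroxylase machinery, were called higher as given above. The summed endoderm markers given above were lower in the same libraries. A longer list of fibroblast and feeder genes, which shares Fn1 with the basement membrane list, had 8 of 19 lower and 1 higher, and summed to 1343 to 1404 CPM in the controls and 1075 to 1158 CPM in the Trim71-/- libraries. The part of either in the matrix difference was not tested. Without Trim71-/- replicate 3, the library that stood apart, the lower count was 14 for the collagens and 21 for the laminins, nidogens and other basement membrane genes.

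Several signalling readouts leaned downward. Of 24 ERK response genes 15 were lower and 1 was higher (median -0.30). Beside Egr1, Phlda1 fell from 29.4 ± 0.723 to 15.4 ± 1.05 CPM, the feedback inhibitor Spry2 from 147 ± 5.4 to 98.5 ± 4 CPM and the ERK phosphatases Dusp6 and Dusp1 by 0.37 and 0.53. Etv4 stood at 246 ± 6.63 CPM in the controls and 245 ± 6.53 CPM in the Trim71-/- libraries and was not called. In the Nodal, BMP and TGF-beta list 17 of 44 were lower and 9 were higher. Nodal stood at 64, 62.6 and 64.6 CPM in the control libraries and 38.1, 40.7 and 38.8 CPM in the Trim71-/- libraries, a fall of 0.70 on the log2 scale, and Skil, a SMAD corepressor and target, fell by 0.53, while Inhbb rose as given above. On the BMP side the ligand gene Bmp4 rose from 30.1 ± 0.027 to 44.3 ± 2.16 CPM and the target genes Id1 and Id2 from 77.4 ± 1.93 to 122 ± 9.47 CPM and 18.6 ± 2.13 to 33.2 ± 1.03 CPM. Of 19 Notch genes 11 were lower, among them the ligands Jag1 (-0.84) and Jag2 (-0.58) and the receptors Notch3 (-0.42) and Notch1 (-0.23), and 3 were higher, with the target Hes1 at 0.27. Without control replicate 2 the lower count was 7, and without control replicate 1 the higher count was 1.

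Targets of YAP and SRF, which follow cell tension, were lower in 14 and higher in 4 of 29. The actin-binding calponin gene Cnn2 stood at 38, 34.8 and 35.1 CPM in the control libraries and 12.7, 14.2 and 13.7 CPM in the Trim71-/- libraries, lower by 1.41 on the log2 scale, and Ccn1 (CYR61), Tead1 and Zyx fell by 0.68, 0.51 and 0.50. Ccn2 (CTGF) stood at 29.7 ± 2.68 CPM in the controls and 26.8 ± 0.921 CPM in the Trim71-/- libraries and was not called. In the LIF list 7 of 18 were lower and 3 higher: the shared receptor gene Il6st (gp130) fell from 94.3 ± 3.27 to 58.9 ± 4.15 CPM, Socs3 fell by 0.13 and Stat3 stood at 194 ± 3.06 CPM in the controls and 197 ± 13.7 CPM in the Trim71-/- libraries, not called. In the Wnt list 13 of 52 were lower and 8 were higher (4 without control replicate 1, and 5 without Trim71-/- replicate 1). Its lower members included Porcn, needed for Wnt secretion (-0.80), the receptor genes Lgr4 (-0.59) and Fzd7 (-0.53) and the target Axin2 (-0.33). Higher members included Wls (0.48), Fzd6 (0.59) and the secreted Dkk3 (0.83). Semaphorins and plexins split, 7 of 29 higher and 8 lower, with Sema3b at 0.83 and Sema3f at -0.48.

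Genes of early embryo and germ line, many in multicopy families, were taken next. Of 23 genes that mark the 2-cell-like cells of such cultures, which resemble the cleaving embryo, 17 were lower by at least 2-fold and none was higher (median -2.72). Zscan4c stood at 6.45, 7.54 and 6.45 CPM in the control libraries and 0.604, 0.455 and 0.323 CPM in the Trim71-/- libraries, and 85.5% of its windows recur in other genes, so Zscan4 copies are not told apart. The list summed to 51.0 to 55.3 CPM in the controls and 14.3 to 15.8 CPM in the Trim71-/- libraries. Of 30 Pramel genes, a family of cleavage stages and germ cells, 12 were lower and 1 was higher. Pramel12, with no shared windows, fell from 33.6 ± 0.666 to 14.7 ± 1.02 CPM. Pramel13, also with none, stood at means of 28.8 CPM in the controls and 25.6 CPM in the Trim71-/- libraries and was not called (edgeR adjusted p = 0.0507). Apart from Pramel1 and Pramel12, the lower genes had 1.37 CPM or less in the controls. Of their windows, 38.6% (Pramel31) to 94.5% (Pramel40) recur in other genes, so these copies are not told apart. All 7 Xlr genes tested, X-linked relatives of a synaptonemal complex protein, were higher (median 2.88), with a sum of 4.55 to 6.03 CPM in the controls and 31.0 to 34.8 CPM in the Trim71-/- libraries. Xlr3a stood at 1.15, 0.961 and 1.82 CPM in the control libraries and 11.4, 12.7 and 13 CPM in the Trim71-/- libraries, and 44.8% of its windows recur in other genes. In the other protein-coding Xlr3 and Xlr4 genes the share was 52.2% (Xlr4b) to 77.7% (Xlr4a), so these copies are not told apart. Of 38 germ cell genes 16 were lower and 5 were higher, with a median of -0.19. Stra8, the gatekeeper of meiosis, fell by 2.07 on the log2 scale, the synaptonemal genes Sycp1 and Sycp3 by 1.32 and 1.02 and the piRNA factor Mael by 0.99, whereas Hormad2 and Sohlh2 rose by 1.30 and 0.90.

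The stress lists did not move as one: outside chromosome 8, lower genes outnumbered higher ones in the p53, unfolded protein response and integrated stress response lists, and not in the heat shock, oxidative stress and apoptosis lists. Of 28 p53 targets and regulators 20 were lower and 3 were higher (median -0.35). Trp53 fell from 490.4 ± 18.9 to 432 ± 8.24 CPM and its inhibitor Mdm2 from 185 ± 2.08 to 151 ± 2.92 CPM. Bax stood at 239 ± 9.17 CPM in the controls and 229 ± 18.1 CPM in the Trim71-/- libraries and was not called. In the unfolded protein response 17 of 21 genes were lower and none was higher (median -0.29): the chaperone gene Hspa5 (BiP) fell from 916 ± 36.9 to 818 ± 32.1 CPM, Pdia6 from 370.4 ± 6.59 to 277 ± 12.4 CPM, Xbp1 by 0.46 and Dnajb9 by 0.54. Calr and Herpud1, which belong to the same response but lie on chromosome 8, rose by 0.28 and 0.84. Of 27 genes of the integrated stress response, which slows translation under stress, 9 were lower and 5 higher. Among 30 heat shock and chaperone genes outside chromosome 8, 9 were higher and 9 lower, among 31 oxidative stress and metal response genes 11 were higher and 6 lower, and among 32 apoptosis genes 8 were higher and 5 lower.

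Energy genes were taken by pathway. Of 24 genes of glycolysis 15 were lower and none was higher (median -0.18). Tpi1 stood at 164, 162 and 175 CPM in the control libraries and 105, 115 and 122 CPM in the Trim71-/- libraries, Ldha at 590.1, 585 and 604 CPM in the control libraries and 429.8, 463 and 477 CPM in the Trim71-/- libraries, and the falls were 0.55 and 0.38 on the log2 scale with no overlap in either. Pfkl fell by 0.46, and Pfkfb3, which makes the activator of phosphofructokinase, by 0.70. Hypoxia genes were lower in 11 of 19 and higher in none, with Epas1 (HIF2A) falling from 73.8 to 50.8 CPM and Bnip3 by 0.85 on the log2 scale. By contrast 11 of 26 genes of the TCA cycle and its feeders were higher and 2 were lower. Fumarase (Fh1) rose from 117 ± 5.08 to 163 ± 8.97 CPM, cytosolic malic enzyme (Me1) from 28.5 ± 0.79 to 44.8 ± 1.08 CPM and Suclg2 by 0.35, cytosolic Idh1 fell by 0.32, and citrate synthase (Cs) stood at 261 ± 3.43 CPM in the controls and 257 ± 2.71 CPM in the Trim71-/- libraries, not called. Nuclear respiratory chain subunits were higher in 30 of 81 and lower in 4 (median 0.10), though no member of at least 5 CPM rose by more than 0.40, the value for Atp5k. Without Trim71-/- replicate 3 the median was 0.05 and the lower count 8, and without replicate 2 the lower count was 2. None of 13 mitochondrially encoded genes was called by edgeR with TMM factors and all libraries, and 1 had an unadjusted p under 0.05. DESeq2, limma-voom, RLE factors, the 1 CPM minimum and the fit without Trim71-/- replicate 1 each called 1 lower, and the fit without replicate 2 called 1 higher.

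The growth lists had medians from -0.09 to 0.07 on the log2 scale, apart from the replication-dependent histones at 0.32. Cytosolic ribosomal protein genes were higher in 26 of 83 and lower in 2, with a median of 0.07. This rested on Trim71-/- replicate 3, where the summed level was 58440 CPM against 51862 and 52410 CPM in the other Trim71-/- libraries and 50756 to 51983 CPM in the controls. Without it 13 were higher and 7 were lower. Rpl4 stood at 2524 ± 31.6 CPM in the controls and 2535 ± 79.2 CPM in the Trim71-/- libraries and was not called. Replication genes were higher in 15 of 43 and lower in 6, with Pole3 (0.48) and Pold2 (0.43) the furthest, and mitosis genes were lower in 11 of 41 and higher in 2 (4 with TMM factors computed without chromosome 8), the latter being Cdk1 (0.33) and Racgap1 (0.40). Replication-dependent histone genes were higher in 9 of 59 (15.3%, against 14.7% of all genes) and lower in none, with H1f2 rising from 8.88 ± 0.0703 to 18.1 ± 1.33 CPM; their mRNAs lack poly(A) tails and their copies are nearly alike. Host genes of small nucleolar RNAs were higher in 9 of 19 and lower in none, among them Gas5 (from 279.5 to 340.4 CPM) and Snhg8 (from 22.3 to 34.5 CPM). Splicing regulators were higher in 22 of 63 and lower in 7. Within the muscleblind family Mbnl1 and Mbnl3 rose by 1.21 and 0.67 and Mbnl2 fell by 0.39, and Rbm20, which splices titin in heart, fell by 1.09.

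Membrane and adhesion genes filled much of the remaining table. Solute carriers were higher in 36 and lower in 79 of 272 (median -0.14). The amino acid carriers Slc1a4, Slc43a1 and Slc38a2 fell by 0.89, 0.84 and 0.56, and the lactate exporter Slc16a3 from 24.3 ± 1.92 to 16 ± 0.343 CPM. Slc52a3, a riboflavin carrier, rose by 0.91, and the aspartate-glutamate carrier Slc25a12 by 0.75. The glucose transporter gene Slc2a1 stood at 349 ± 11.2 CPM in the controls and 341 ± 9.85 CPM in the Trim71-/- libraries and was not called. Protocadherins were lower in 24 of 44 and higher in none. Of these 21 were gamma genes of a single cluster, whose variable exons are spliced to the same constant exons, and their values lay within -0.22 to -0.20, so these are not separate observations. Pcdh1, outside the cluster, fell by 0.71. Among keratins 4 of 16 were higher and 1 was lower, with Krt17 rising from 2.16 ± 0.463 to 8.23 ± 0.79 CPM. Krt8 rose by 0.42, while Krt18, the partner with which its protein pairs, was called lower (-0.33) with overlapping libraries and lost its call in limma-voom (adjusted p = 0.118), in edgeR on the 6 Cas9 libraries alone (0.0515) and in 4 of the 6 fits with a library left out.

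Reported mRNA targets of TRIM71 were higher in 6 of 10 outside chromosome 8 and lower in 2 (median 0.48), with Lin28b inside the chromosome 10 stretch. Plxnb2, a semaphorin receptor, stood at 82.3, 81.3 and 80.7 CPM in the control libraries and 151, 151 and 155 CPM in the Trim71-/- libraries, a rise of 0.90 on the log2 scale (SE 0.04) with no overlap. Mbnl1 stood at 10.7, 12.6 and 10.6 CPM in the control libraries and 26.3, 26.5 and 25.1 CPM in the Trim71-/- libraries, and the retinoblastoma relative Rbl1 rose from 24.2 ± 0.971 to 38.9 ± 1.62 CPM. Egr1 and Cdkn1a were the 2 lower members, and Cdkn1a (-0.15) was near the threshold (adjusted p = 0.041). The lower count was 1 in DESeq2, in limma-voom and in 4 of the 6 fits with a library left out. Of 27 targets of let-7, 5 were higher and 11 were lower (40.7%, against 19.9% of all genes), with a median of -0.08 and with Lin28a falling from 322 ± 9.2 to 199.9 ± 5.92 CPM while its sister Lin28b rose.

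The same genotypes were compared in the Tnrc6a arm, and the difference between the arms was tested as an interaction. It was called for 1419 of 20486 genes (6.93%), 958 with a more positive and 461 with a more negative effect of Trim71-/- under Tnrc6a. Of the 3495 genes higher with Cas9, 2458 were also called higher with Tnrc6a and 32 were called lower, and the interaction was called for 373. Of the 3908 lower genes, 2393 were also lower and 92 were higher, with 619 interactions. Called in the same direction with Tnrc6a were thus 70.3% of the higher and 61.2% of the lower genes. Of all genes tested, called with Cas9 or not, 35.4% were called with Tnrc6a in the direction of their Cas9 change. On chromosome 8 this share was 66.9%. The counts include 642 higher genes of chromosome 8 and those of the chromosome 10 stretch, whose shifts recurred in both arms. The 2 comparisons share no library. Egr1 had a log2 fold change of -2.03 with Cas9 and of -0.18 with Tnrc6a (interaction 1.84, edgeR adjusted p = 9.58e-13). Rhox5 rose by 1.76 with Cas9 and had 0.37 with Tnrc6a (interaction adjusted p = 7.42e-11), Chd3 1.22 beside 0.26, and Id2 0.84 beside -0.05. Inhbb and Sgk1 went the other way, with 1.14 and 1.31 in the Cas9 arm and 2.12 and 1.91 in the Tnrc6a arm. Zscan4c fell less with Tnrc6a (-1.50, against -3.82), and the protocadherin gene Pcdhgc3 had -0.22 with Cas9 and 0.17 with Tnrc6a. Dnmt3l, Col4a1, Gata4, Xlr3a and Hdac2 had no interaction call, with effects of -1.6, -1.61, -2.87, 3.06 and 0.76 in the Tnrc6a arm.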

How the data were processed

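Stranded total RNA libraries of mouse embryonic stem cells, 3 in each of 4 groups, were sequenced by the authors, and the 6 Cas9 libraries are described here. Values were read counts per gene as deposited by the authors, with STAR 2.7.3a, bcl2fastq 2.20 and the builds GRCm38 and mm10 named in the submitters' processing notes. Neither the counting tool nor its strand setting is given in the sources used here. RPKM values deposited by the authors beside the counts were used only as levels per gene length and entered no test. Gene positions and classes came from an annotation of GRCm38, in which 20505 of the 20529 listed genes were found.

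Counts were tested with edgeR 4.0.16 (R 4.3.3), using its quasi-likelihood test with robust dispersion, TMM factors and filterByExpr by group, on all 12 libraries. The other arm thus added to the estimate of the spread. Benjamini-Hochberg adjustment ran over 20486 genes, and a gene was called under 0.05. CPM values are counts divided by library size times TMM factor. The difference between arms was tested as an interaction term in the same fit. The code was tested on simulated data. Alternatives were DESeq2 1.42.0, limma-voom (limma 3.58.1), other scalings and filters, a fit on the 6 libraries, the replicate block and each library left out.

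Named genes were the proteins of the labels, the 15 largest rises and falls outside chromosome 8 in genes of at least 20 CPM in either group, the 10 largest in CPM, the 8 largest on chromosome 8, the 10 neighbours on each side of Trim71, up to 5 called and 2 uncalled genes per list, and the 6 largest interactions of each sign. The 15 largest rises and falls were taken among called genes whose libraries did not overlap between the groups. Not every gene these rules give is printed, and other genes were named after their values had been seen. The members and gene lists were chosen with earlier results of these data known. Shared sequence was the share of 50-base windows of a gene's transcripts found in those of other genes.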

Additional observations from a re-analysis of the deposited data

Results flagged for a closer look

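Of 254 named genes tested, 89 had an effect of Trim71-/- that differed between the Cas9 and the Tnrc6a arm, by the edgeR interaction term at an adjusted p under 0.05. The 12 genes named for the size of their interaction had to be among them. Of the 242 others, many chosen for the size of their change, 77 (31.8%) had such a call, beside 6.93% of all genes tested, and nothing is read from that share. Values in brackets are the log2 fold change with Tnrc6a minus that with Cas9. The effect was more negative with Tnrc6a for 31 genes. From the farthest, these were Rhox5 (-1.39), Lrp2 (-1.37), Bmp8b (-1.30), Sox7 (-1.29), Igf2 (-1.25), Atxn1 (-1.23), Krt8 (-1.21), Ccr4 (-1.09), Krt18 (-1.0), Chd3 (-0.96) and Id2 (-0.89). They went on with Nrg1 (-0.88), Lama1 (-0.84), Lamb1 (-0.71), Wls (-0.68), Axin2 (-0.64), Prph (-0.59), Id1 (-0.51), Lamc1 (-0.46), Rps6ka4 (-0.45), Dnmt3b (-0.44) and Ctsl (-0.34). The nearest to 0 were Slc25a12 (-0.33), Lncenc1 (-0.31), Cdk1 (-0.30), Calcoco2 (-0.29), Sparc (-0.28), Dppa2 (-0.22), Lin28a (-0.22), Racgap1 (-0.20) and Socs3 (-0.20). The effect was more positive with Tnrc6a for 58 genes. The smallest differences were those of Eef1a1 (0.15), Aldoa (0.17), Slc2a1 (0.18), Resf1 (0.20), Zfp979 (0.22), Nid1 (0.23), Xbp1 (0.23), Plxnb2 (0.23), Idh1 (0.24) and Pabpc1 (0.25). Next in size came Nr5a2 (0.25), Skil (0.25), Hspa5 (0.25), Klf4 (0.26), Ptprk (0.26), Eif2s2 (0.27), Nanog (0.27), Il6st (0.28), Stat3 (0.28) and Cd24a (0.28). Then followed Zfp57 (0.28), Kdm2b (0.29), Gja1 (0.30), Nid2 (0.31), Lgr4 (0.31), Mdm2 (0.32), Hes1 (0.32), Mt2 (0.32), Peg10 (0.32) and Cdkn1a (0.32). Larger ones were those of Zfp42 (0.37), Dusp4 (0.38), Pcdhgc3 (0.39), Nodal (0.40), Epas1 (0.40), Stra8 (0.45), Adgrb1 (0.46), Pramel12 (0.46), Phlda1 (0.48) and Grb10 (0.50). Farther from 0 were Esrrb (0.50), Dnmt3a (0.58), Jag1 (0.58), Sgk1 (0.60), Dusp1 (0.65), Cdh2 (0.66), Calb2 (0.72), Pmaip1 (0.82), Arhgef26 (0.85) and Inhbb (0.98). The farthest were Gata6 (1.14), Egr1 (1.84), Zscan4f (2.08), Ccser1 (2.28), Zscan4c (2.32), Dcc (2.35), Zscan4d (2.51) and Spopfm1 (3.03). Zscan4c, Zscan4d and Zscan4f share sequence and are not told apart. The values of Ccser1, Atxn1, Dcc and Spopfm1 rest on few counts in the Cas9 libraries. Ccser1 had 28 counts over the 3 controls and 4 over the 3 Trim71-/- libraries, Atxn1 had 34 and 98, and Spopfm1 had 23 and 1. Dcc had 22 and 2, and its edgeR interaction adjusted p of 0.0499 was just under the threshold. The log2 fold change of Ccser1 with Cas9 was -4.09 without Trim71-/- replicate 3 and -2.78 with it, and that of Atxn1 was 2.17 without control replicate 3 and 1.45 with it.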

How the results depend on the processing

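With DESeq2 3207 genes were higher and 3678 lower, with limma-voom 3411 and 3832, with TMM factors computed without chromosome 8 3859 and 3620, and on the 6 Cas9 libraries alone 3388 and 3368. Genes past 2-fold numbered 190 higher and 318 lower under a minimum of 1 CPM in 3 of the 6 libraries, in place of 371 and 706, with 16224 genes tested in place of 20486. The chromosome 8 median was 0.51 with TMM factors computed without chromosome 8, 0.47 at a level minimum of 1 CPM and 0.52 at one of 20 CPM. With 1 library left out at a time, 3038 to 3284 genes were higher and 3379 to 3716 lower, and 349 to 379 and 652 to 690 passed 2-fold. Under the replicate block 3426 were higher and 3840 lower. Same-numbered libraries did not deviate together (correlations of -0.116, 0.037 and -0.076 over 12498 genes), so the numbers were not taken as pairs. Over 622 named genes, 9134 of the gene-and-setting values kept their side of the threshold, 103 lost the call and 73 gained it. None reversed direction where either fit called the gene. Direction was not compared where neither fit did. Another scaling moved the median of all genes by at most 0.018. Among Pramel genes the lower count was 2 under the 1 CPM minimum and 6 on the 6 libraries alone, and 2-cell-like genes had 8 under that minimum. Depth limits the genes under 1 CPM most, and intervals between wells say nothing of other lines.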

Other observations

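Lysosome genes split in Trim71-/- cells, with 13 of 26 outside chromosome 8 lower and 5 higher (3 higher without control replicate 2). The cathepsin gene Ctsl fell from 199.6 ± 11.9 to 136 ± 3.73 CPM (mean ± SD, 3 libraries a group), and Lipa, the acid lipase that frees cholesterol from lipoprotein esters, rose from 5.64 ± 0.253 to 11.5 ± 1.02 CPM. Of 21 cofactors of KRAB zinc finger proteins and repeat silencers 9 were lower and 1 was higher, with a median of -0.10. Zfp809, which silences murine retroviruses, fell by 0.58 on the log2 scale, Resf1 by 0.41, and Mphosph8 of the HUSH complex rose by 0.30. Trim28 (KAP1), the corepressor that KRAB domains recruit, had a log2 fold change of -0.09 with overlapping libraries.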
